A study of Bos taurus with 14 samples.

Results

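The genes described here are 40 genes of hepatic stellate cells and of the extracellular matrix, picked by gene symbol from a table of liver mRNA levels. All 40 were found among the 17469 genes of the table, and their levels are the sums of 95 transcripts. In 18 of the 40 genes a single transcript was listed. The livers came from 14 Holstein bull calves, 7 per group, slaughtered on day 90. DCLI calves were fed a postbiotic, a preparation of inactivated microbes, which here was dead cells of Lactobacillus ingluviei CR37 at 1 g per day. CON calves were reared the same way without it, and the treated libraries are taken as DCLI because the design names no other treatment. Calves of both groups had milk replacer at 1.75% of body weight, starter feed from day 33, a cut of the milk replacer to 50% on day 82 and full weaning by day 89. Calves are numbered within each group as in the library titles.

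Hepatic stellate cells lie between the hepatocytes and the sinusoidal endothelium, where they store vitamin A as retinyl esters. When the liver is injured they can turn into contractile, matrix-producing myofibroblasts, under the influence of transforming growth factor beta and platelet-derived growth factor. The fibrillar collagens, small proteoglycans and glycoproteins that they and the portal fibroblasts secrete form the scaffold of the liver, and lysyl oxidases, matrix metalloproteinases and their inhibitors govern how that scaffold is crosslinked and turned over. Several of these genes are not private to such cells. Hepatocytes also make fibronectin, endothelial cells also make type IV collagen, and leukocytes also express VIM and TGFB1.

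Levels are given as TPM, which corrects for the length of a transcript and for the size of a library, so levels of different genes can be set side by side. TPM has the same total in every library, and the sequencing depth behind each value is therefore unknown. The libraries resembled one another, with 15274 to 15781 genes above 0, and CON2 stood farthest from the rest (median correlation with the other libraries 0.948, against 0.963 to 0.977 for the other 13). CON2 also had the highest sum of 7 general leukocyte markers, 1107 TPM, against 170 to 495 TPM in DCLI calves and 197 to 535 TPM in the other CON calves. In a piece of whole liver, fewer cells of a type and less RNA per cell cannot be told apart. Every one of the 40 genes passed the filter for testing (at least 1 TPM in at least 7 libraries), as did 11905 genes in all. Markers of stellate cells were present: of 12 further stellate cell genes found in the table, 10 passed the same filter.

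The 40 genes together made up 1095 to 1540 TPM in DCLI calves and 1278 to 1703 TPM in CON calves, which is 0.109% to 0.17% of the mRNA measured. FN1, the gene of fibronectin, was the most abundant. It ranged from 279 to 603 TPM in DCLI calves (median 447) and from 372 to 499 TPM in CON calves (median 447). SPARC, which encodes a collagen-binding protein, came next, at 214 ± 34.2 TPM in DCLI calves and 225 ± 60.1 TPM in CON calves (here and below, ± is the SD over the 7 calves of a group). DCN, the gene of decorin, was the only other one with a mean of at least 100 TPM. A further 22 genes averaged 10 to under 100 TPM and 15 averaged less than 10 TPM. The lowest was LOX, a lysyl oxidase that starts collagen crosslinking, at 1.13 ± 0.320 TPM in DCLI calves and 1.22 ± 0.398 TPM in CON calves. LOXL1, a relative of LOX with a role in elastic fibres, was much more abundant, at 14.2 ± 3.61 TPM in DCLI calves and 14.5 ± 2.07 TPM in CON calves.

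**Figure D1:**
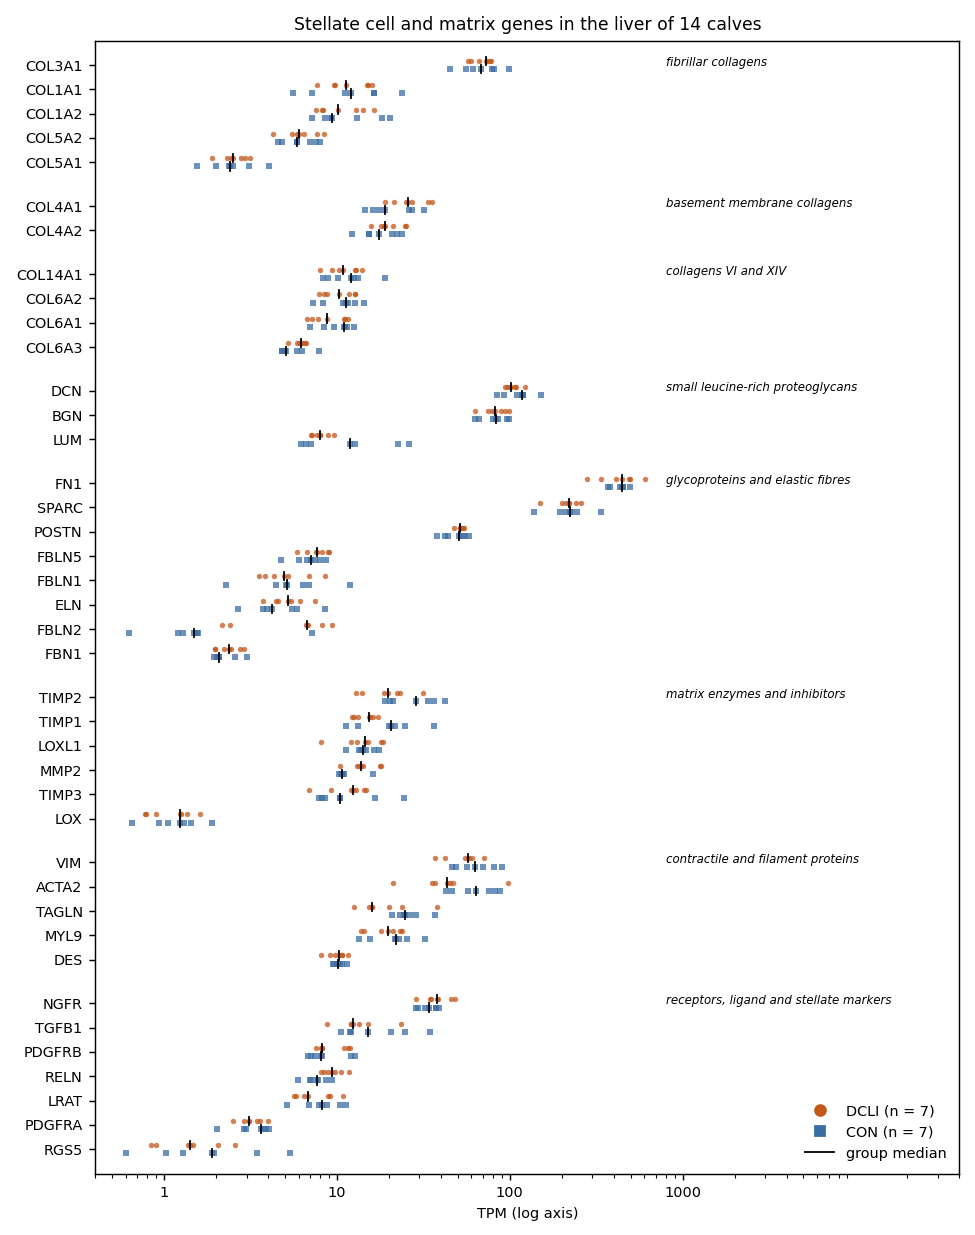
TPM of the 40 genes (log axis) in each of the 14 calves, with genes grouped by role, circles for DCLI (n = 7), squares for CON (n = 7) and a black line at the group median. Levels run from about 1 TPM for LOX to a mean of 436 TPM for FN1, and the 2 groups overlap for every gene.

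The genes differed in how much they varied between calves. The coefficient of variation over all 14 calves was 9.02% for DES, the intermediate filament protein desmin, 11.01% for POSTN, which encodes periostin, and 14.5% for COL6A3. It reached 77.2% for FBLN2, 67.4% for RGS5, a pericyte regulator of G protein signalling, and 57.4% for LUM. The median over the 40 genes was 23.4%, against 20.9% over all genes tested, and 23 of the 40 lay above that value.

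No single calf was high or low throughout. CON1 had the highest level of 13 genes and was among the 3 highest calves for 28, including COL1A1 (23.7 TPM), COL3A1 (99.4 TPM), SPARC (337 TPM) and DCN (151 TPM). CON4 had the lowest level of 9 genes, among them COL1A1 (5.58 TPM), COL3A1 (45.0 TPM) and SPARC (137 TPM). CON2 was highest for 7 genes and lowest for 5, and DCLI5 was highest for 7. For COL1A1, COL3A1 and SPARC the highest and the lowest calf were thus both CON calves. The coefficient of variation was lower within DCLI than within CON for 30 of the 40 genes, with medians of 20.3% in DCLI and 25.5% in CON. The same held for 62.1% of all genes tested. Without CON1 and CON2, an alternative chosen after the data were seen, it was lower within DCLI for 23 of the 40 genes and 37.8% of all genes, and the medians were 20.3% in DCLI and 19.9% in CON.

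**Figure D2:**
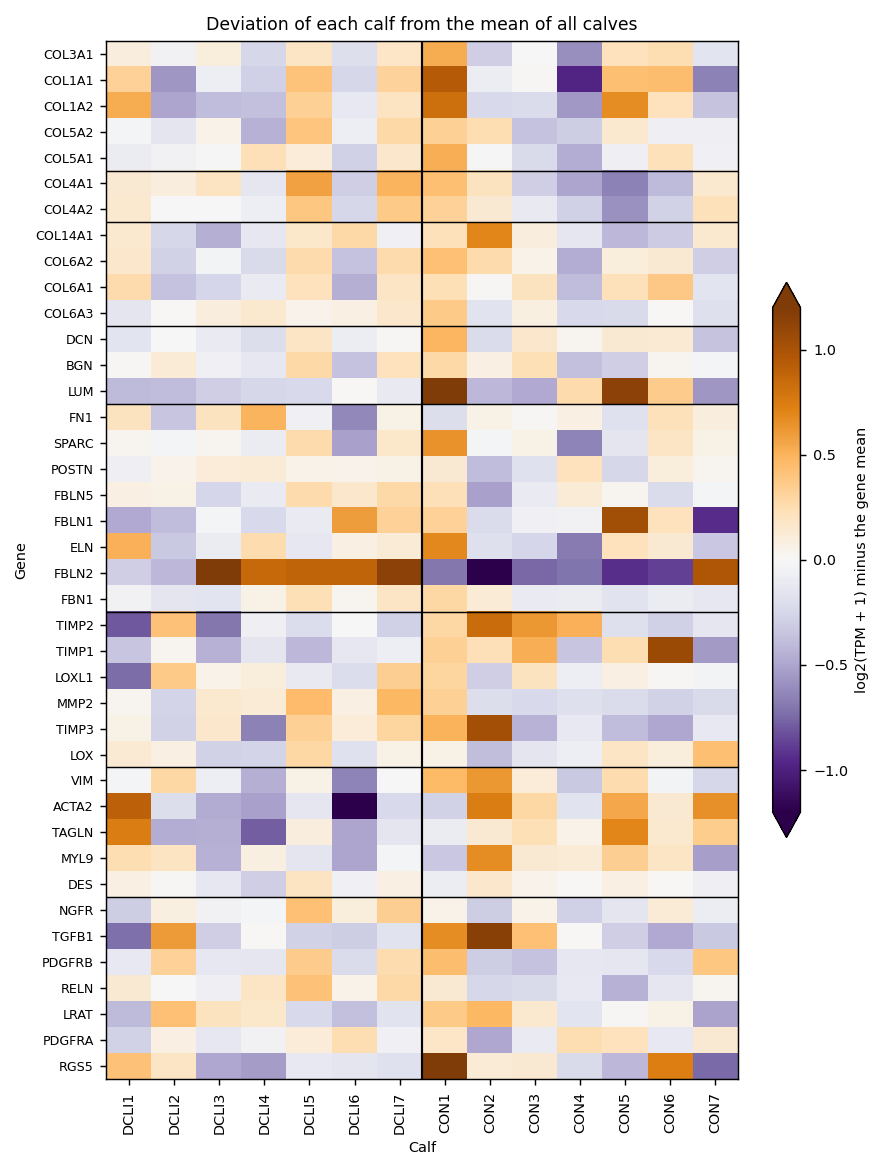
Deviation of each calf (columns, DCLI on the left and CON on the right) from the mean of all calves for the 40 genes (rows, in the order of the roles), in log2(TPM + 1), with orange above and violet below the mean. CON1 is orange for most genes and CON4 is violet for most collagens, while FBLN2 is orange in DCLI3 to DCLI7 and in CON7.

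The comparison of DCLI with CON asks how the supplement bears on these mRNA levels. It was tested on log2(TPM + 1) with limma across all 11905 genes, and p-values were adjusted by the Benjamini-Hochberg method. Of the 40 genes, 0 reached an adjusted p of 0.05, and of all genes tested 0% did (0 of 11905). The lowest adjusted p among the 40 was 0.365, for FBLN2. At an unadjusted p under 0.05 by limma, 3 of the 40 genes (7.5%) were higher in DCLI, where 5.7% of all genes were, and 4 of the 40 (10%) were lower in DCLI, where 3.19% of all genes were. The 3 were FBLN2, RELN and MMP2, and the 4 were ACTA2, TAGLN, TIMP1 and TIMP2. That total of 7 (17.5%), beside 8.89% of all genes, depended on single calves. It was 3 without DCLI3, DCLI5, DCLI7, CON3, CON5 or CON6, where 6.38% to 8.05% of all genes reached that p. It was 4 without DCLI4, DCLI6 or CON2, where 7.77% to 10.9% of all genes did. Without both CON1 and CON2 it was 5, where 11.2% of all genes did.

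In direction, 23 of the 40 genes (57.5%) had a lower mean log2(TPM + 1) in DCLI, beside 51.2% of all genes tested. The median log2 fold change of the 40 was -0.039, against -0.0052 for all genes. Without both CON1 and CON2, 17 of the 40 were lower in DCLI, beside 32.7% of all genes. The median of the 40 was then 0.067, while the median of all genes moved to 0.075. For none of the 40 genes (0 of 40) did the 2 groups fail to overlap, which 0.0672% of all genes did. The 95% interval of the log2 fold change lay wholly within ±0.5 for 23 of the 40 genes and within ±1 for 37.

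**Figure D3:**
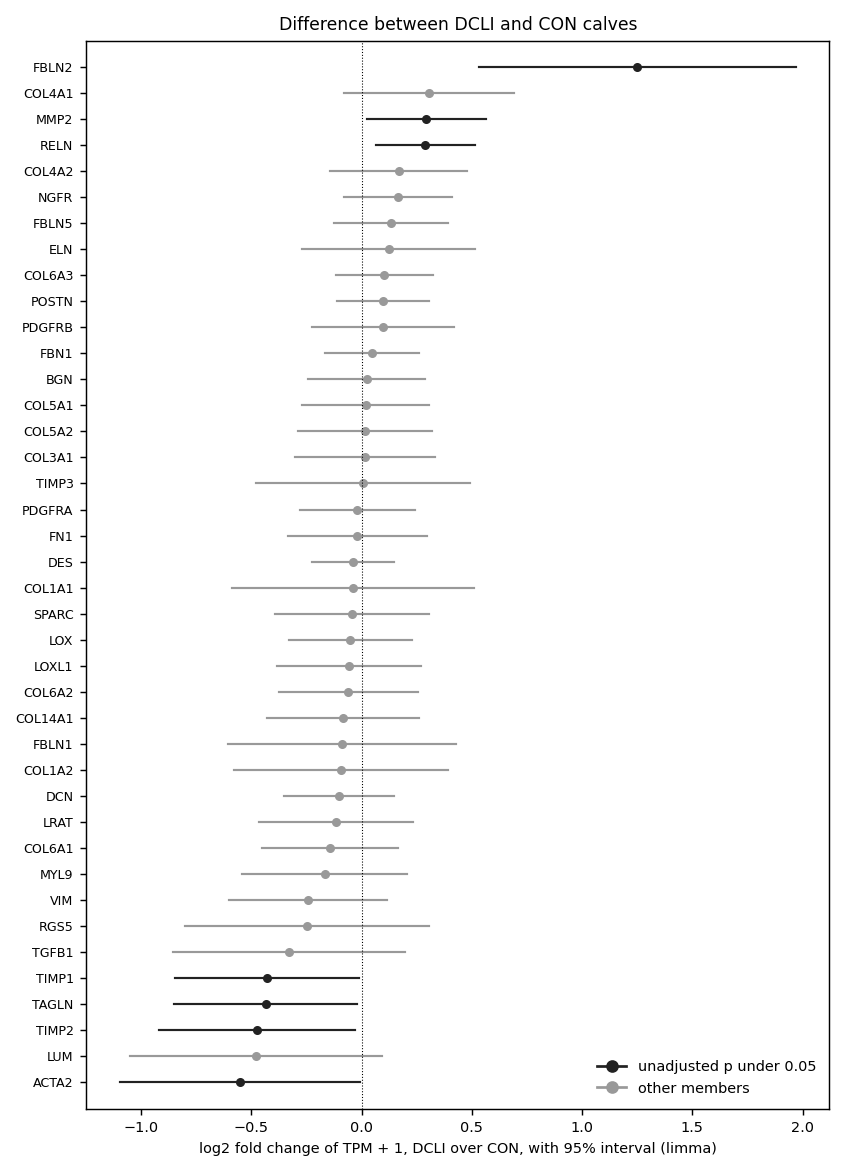
Log2 fold change of TPM + 1, DCLI over CON, with its 95% interval from limma for each of the 40 genes, from the highest at the top to the lowest. FBLN2 lies apart at 1.25, the 7 genes with an unadjusted p under 0.05 are dark, and none has an adjusted p under 0.05.

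None of the 5 genes of fibrillar collagens, which give the matrix its tensile strength, passed the test. COL1A1, the alpha 1 chain of type I collagen, ranged from 7.68 to 16.0 TPM in DCLI calves (median 11.2) and from 5.58 to 23.7 TPM in CON calves (median 12). COL3A1, the single chain of type III collagen, was the most abundant collagen among the 40, at 57.5 to 77.6 TPM in DCLI calves (median 72.8) and 45.0 to 99.4 TPM in CON calves (median 68.3). For both genes the DCLI range sat inside the CON range. The log2 fold changes were -0.039 ± 0.26 (SE) for COL1A1, with a 95% interval of -0.59 to 0.51, and 0.016 ± 0.15 (SE) for COL3A1, with a 95% interval of -0.30 to 0.33. COL1A2, COL5A1 and COL5A2, the other chains of types I and V, had log2 fold changes of -0.094, 0.019 and 0.016.

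Type IV collagen forms the basement membranes of vessels and bile ducts. COL4A1 ranged from 19.0 to 35.6 TPM in DCLI calves (median 25.9) and from 14.6 to 32.1 TPM in CON calves (median 19.0). COL4A2, its partner chain, ranged from 15.8 to 25.0 TPM in DCLI calves (median 18.9) and from 12.3 to 23.9 TPM in CON calves (median 17.4). For each chain 6 of 7 DCLI calves lay above the CON median, and the groups overlapped widely. Neither passed the test: the log2 fold changes were 0.31 ± 0.18 (SE) for COL4A1 (limma adjusted p = 0.626) and 0.17 ± 0.15 (SE) for COL4A2 (limma adjusted p = 0.741). Without CON5 that of COL4A2 was 0.085.

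The chains of type VI collagen, which forms beaded filaments around cells, and COL14A1, a collagen bound to the surface of fibrils, did not pass the test. COL6A1 averaged 9.15 ± 2.05 TPM in DCLI calves and 10.2 ± 1.95 TPM in CON calves, and COL6A2 averaged 10.4 ± 2.07 TPM in DCLI calves and 10.9 ± 2.45 TPM in CON calves. COL6A3 averaged 6.10 ± 0.489 TPM in DCLI calves and 5.67 ± 1.11 TPM in CON calves. COL14A1 averaged 11.1 ± 2.12 TPM in DCLI calves and 12.1 ± 3.59 TPM in CON calves. The 4 log2 fold changes ran from -0.14 to 0.10.

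Small leucine-rich proteoglycans coat collagen fibrils and set their spacing. DCN averaged 104 ± 9.53 TPM in DCLI calves and 114 ± 21.7 TPM in CON calves, and BGN, the gene of biglycan, averaged 83.0 ± 12.3 TPM in DCLI calves and 81.9 ± 13.7 TPM in CON calves. LUM, the gene of lumican, ranged from 7.09 to 9.67 TPM in DCLI calves (median 7.99) and from 6.17 to 26.2 TPM in CON calves (median 11.9). All 7 DCLI calves were below the CON median, but CON2, CON3 and CON7 were lower than every DCLI calf, and CON1 (26.2 TPM) and CON5 (22.5 TPM) were far above the rest. LUM had a log2 fold change of -0.48 ± 0.27 (SE, limma adjusted p = 0.615), and -0.29 without CON1.

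Among the glycoproteins and elastic fibre genes, FBLN2 had the largest log2 fold change of the 40 in either direction. It encodes fibulin-2, an extracellular glycoprotein that binds fibronectin and elastic fibre components. FBLN2 ranged from 2.17 to 9.36 TPM in DCLI calves (median 6.73) and from 0.63 to 7.20 TPM in CON calves (median 1.48). The calves fell into separate clusters: DCLI3 to DCLI7 and CON7 lay between 6.58 and 9.36 TPM, DCLI1 and DCLI2 at 2.42 and 2.17 TPM, and the other 6 CON calves between 0.63 and 1.58 TPM. Of its 3 transcripts, 1 held 95.5% of the gene's level. The log2 fold change was 1.25 ± 0.34 (SE), with an unadjusted p of 0.00201 and an adjusted p of 0.365 by limma, and all 7 DCLI calves were above the CON median. Without CON7 the log2 fold change was 1.52 and the limma adjusted p was 0.0466. CON7 had the highest level among CON calves, so leaving it out was bound to raise the fold change. In that setting 12 of all genes had an adjusted p under 0.05. Without each of the other calves in turn, the adjusted p of FBLN2 lay between 0.254 and 0.751.

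With all calves, the other genes of this group stayed within 0.14 of no change on the log2 scale. Single calves moved that limit: ELN was at 0.25 without CON1 and FBLN1 at -0.25 without CON7. FN1 averaged 438 ± 107 TPM in DCLI calves and 434 ± 44.4 TPM in CON calves, with DCLI4 highest at 603 TPM and DCLI6 lowest at 279 TPM. POSTN ran from 47.7 to 54.1 TPM in DCLI calves (median 51.7) and from 37.8 to 58.0 TPM in CON calves (median 50.7). ELN, the gene of elastin, averaged 5.27 ± 1.23 TPM in DCLI calves and 4.92 ± 1.92 TPM in CON calves. FBN1, the microfibril protein fibrillin-1, averaged 2.37 ± 0.355 TPM in DCLI calves and 2.26 ± 0.389 TPM in CON calves. FBLN5, a fibulin needed for elastic fibre assembly, averaged 7.69 ± 1.13 TPM in DCLI calves and 6.95 ± 1.28 TPM in CON calves, and FBLN1 averaged 5.34 ± 1.81 TPM in DCLI calves and 6.03 ± 3.01 TPM in CON calves.

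The enzymes and inhibitors that remodel the matrix held both directions. MMP2, a gelatinase that cleaves denatured and type IV collagen, ranged from 10.4 to 18.0 TPM in DCLI calves (median 13.8) and from 10.3 to 16.2 TPM in CON calves (median 10.7). Apart from CON1 the CON calves were tightly grouped, at 10.26 to 11.03 TPM, and 6 of 7 DCLI calves were above all of those. For MMP2 the log2 fold change was 0.29 ± 0.13 (SE), with an unadjusted p of 0.0347 and an adjusted p of 0.521 by limma, and 0.37 without CON1.

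TIMP1, a soluble inhibitor of metalloproteinases that is induced in inflamed liver, ranged from 12.2 to 17.3 TPM in DCLI calves (median 15.3) and from 11.3 to 36.6 TPM in CON calves (median 20.4). All 7 DCLI calves were below the CON median, while CON4 and CON7 lay within or below the DCLI range and CON6 stood highest. For TIMP1 the log2 fold change was -0.43 ± 0.20 (SE, unadjusted p 0.0439, limma adjusted p = 0.551), and -0.29 without CON6. TIMP2, an inhibitor that also takes part in the activation of MMP2, ranged from 12.9 to 31.3 TPM in DCLI calves (median 19.9) and from 18.9 to 42.4 TPM in CON calves (median 28.5). DCLI2 was the only DCLI calf above the CON median, and CON5, CON6 and CON7 lay among the DCLI calves. Its log2 fold change was -0.47 ± 0.21 (SE, unadjusted p 0.0388, limma adjusted p = 0.541). TIMP3, the matrix-bound inhibitor, averaged 11.8 ± 2.80 TPM in DCLI calves and 12.4 ± 6.09 TPM in CON calves. The ratio of TIMP1 to MMP2 had a median of 1.02 in DCLI calves (range 0.713 to 1.67) and of 1.85 in CON calves (range 1.06 to 3.56). That ratio was not tested. As TIMP1 was lower and MMP2 higher in DCLI, it restates the same values and is not a separate result.

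Contractile proteins mark smooth muscle and myofibroblasts, while the filament gene VIM is also expressed by leukocytes. All 5 contractile and filament genes had lower mean log2(TPM + 1) in DCLI, beside 51.2% of all genes, and none passed the adjusted test. DES was higher in DCLI without DCLI4. The median log2 fold change of the 5 was -0.24, and -0.13 without both CON1 and CON2. ACTA2, smooth muscle actin and the usual marker of activated stellate cells, ranged from 21.1 to 97.9 TPM in DCLI calves (median 43.6) and from 42.6 to 87.4 TPM in CON calves (median 63.5). DCLI1 had the highest level of all calves and DCLI6 the lowest, and 6 of 7 DCLI calves were below the CON median. The log2 fold change was -0.55 ± 0.26 (SE, unadjusted p 0.0481, limma adjusted p = 0.558). Without DCLI1 it was -0.75 (limma unadjusted p 0.00254, adjusted p = 0.461), and without DCLI6 it was -0.39 (limma unadjusted p 0.111).

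TAGLN, the actin-binding protein transgelin, ranged from 12.6 to 38.0 TPM in DCLI calves (median 16.0) and from 20.9 to 36.7 TPM in CON calves (median 24.8). As with ACTA2, DCLI1 was the highest calf and the other 6 DCLI calves were below the CON median. The log2 fold change was -0.43 ± 0.20 (SE, unadjusted p 0.0415, limma adjusted p = 0.549), and -0.59 without DCLI1. MYL9, a myosin light chain, averaged 19.1 ± 3.94 TPM in DCLI calves and 21.9 ± 6.22 TPM in CON calves. VIM, the intermediate filament vimentin, averaged 54.5 ± 11.5 TPM in DCLI calves and 65.0 ± 16.2 TPM in CON calves, and DES averaged 10.02 ± 1.17 TPM in DCLI calves and 10.3 ± 0.630 TPM in CON calves. The 6 tested smooth muscle markers outside the 40 summed to 117 to 163 TPM in DCLI calves and 107 to 174 TPM in CON calves, and 3 of the 6 were lower in DCLI. TPM2, the gene of beta-tropomyosin, averaged 14.7 ± 4.12 TPM in DCLI calves and 20.0 ± 3.19 TPM in CON calves (log2 fold change -0.44 ± 0.14 SE, limma adjusted p = 0.420). CALD1 and SYNM, also among those 6 markers, went the other way. CALD1 averaged 110 ± 14.2 TPM in DCLI calves and 95.2 ± 21.4 TPM in CON calves (log2 fold change 0.23 ± 0.15 SE, limma adjusted p = 0.663). SYNM averaged 2.05 ± 0.598 TPM in DCLI calves and 1.44 ± 0.572 TPM in CON calves (0.33 ± 0.16 SE, limma adjusted p = 0.570). CNN1 and ACTG2, which mark vascular and visceral smooth muscle, did not pass the filter, with highest levels of 2.14 and 2.43 TPM.

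**Figure D4:**
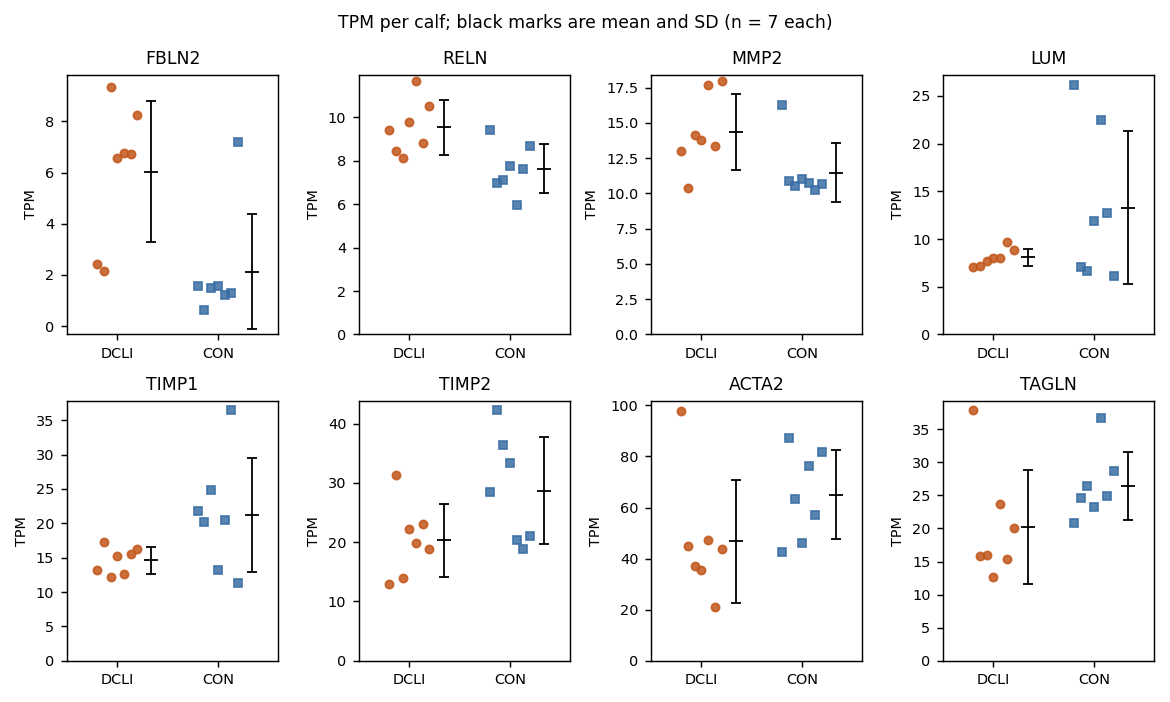
TPM per calf of 8 genes, with DCLI on the left and CON on the right in each panel and black marks for the mean and SD (n = 7 each). FBLN2, RELN and MMP2 have higher means in DCLI, while LUM, TIMP1, TIMP2, ACTA2 and TAGLN have lower ones, and the groups overlap in every panel.

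Among the genes that mark stellate cells, RELN had the lowest unadjusted p. It encodes reelin, a large secreted glycoprotein that stellate cells make. RELN ranged from 8.11 to 11.7 TPM in DCLI calves (median 9.42) and from 5.94 to 9.41 TPM in CON calves (median 7.64). All 7 DCLI calves were above the CON median, with CON1 and CON7 reaching into the DCLI range. The log2 fold change was 0.29 ± 0.11 (SE, unadjusted p 0.0150, limma adjusted p = 0.456), and the unadjusted p stayed between 0.000749 and 0.0378 under all 23 other settings and omissions of a calf. The lowest came from limma sample weights, where 29.5% of all genes had an unadjusted p under 0.05. The limma adjusted p of RELN ran from 0.0220, under those weights, to 0.756.

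NGFR, the low-affinity nerve growth factor receptor, was the most abundant of the stellate markers, at 38.5 ± 6.69 TPM in DCLI calves and 33.9 ± 3.996 TPM in CON calves (log2 fold change 0.17 ± 0.12 SE). LRAT, which esterifies retinol for storage, averaged 7.63 ± 1.96 TPM in DCLI calves and 8.34 ± 2.05 TPM in CON calves (log2 fold change -0.11 ± 0.16 SE, from -0.21 without CON7 to -0.044 without CON2). RGS5 averaged 1.52 ± 0.616 TPM in DCLI calves and 2.23 ± 1.67 TPM in CON calves, where CON1 reached 5.38 TPM. None of the 3 passed the test.

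The receptors for platelet-derived growth factor, which drive stellate cell division, did not pass the test. PDGFRB averaged 9.501 ± 1.86 TPM in DCLI calves and 8.92 ± 2.42 TPM in CON calves, and PDGFRA averaged 3.23 ± 0.495 TPM in DCLI calves and 3.31 ± 0.726 TPM in CON calves. The 95% intervals of the log2 fold change were -0.22 to 0.42 for PDGFRB and -0.28 to 0.24 for PDGFRA. TGFB1, the main fibrogenic cytokine, ranged from 8.74 to 23.6 TPM in DCLI calves (median 12.3) and from 10.6 to 34.7 TPM in CON calves (median 15.2). CON2 was highest and DCLI1 lowest. For TGFB1 the log2 fold change was -0.33 ± 0.25 (SE, limma adjusted p = 0.707), and -0.031 without both CON1 and CON2.

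Genes that act on the same scaffold but lie outside the 40 gave the same count of adjusted calls, 0, in each of 5 lists. Of 21 genes of collagen folding and processing, 2 were higher and 0 lower in DCLI at an unadjusted p under 0.05, where 5.7% of all genes were higher and 3.19% lower. They were PLOD3, a lysyl hydroxylase and glycosyltransferase of collagens, at 106 ± 17.4 TPM in DCLI calves and 73.9 ± 22.9 TPM in CON calves (log2 fold change 0.56 ± 0.17 SE, limma adjusted p = 0.409), and BMP1, the protease that removes procollagen C-propeptides, at 35.1 ± 3.72 TPM in DCLI calves and 29.2 ± 4.20 TPM in CON calves (0.26 ± 0.10 SE, limma adjusted p = 0.481). For both genes all 7 DCLI calves were above the CON median. P4HB and PPIB, a prolyl hydroxylase subunit and a prolyl isomerase, were the most abundant of the list, and neither reached an unadjusted p under 0.05.

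Of 27 tested genes of transforming growth factor beta and platelet-derived growth factor signalling, 1 was higher and 1 lower at an unadjusted p under 0.05. Of all genes, 5.7% were higher and 3.19% lower at that p. THBS1, an activator of latent TGF-beta, averaged 6.32 ± 1.56 TPM in DCLI calves and 4.37 ± 0.965 TPM in CON calves (limma adjusted p = 0.440). LRRC32, which holds latent TGF-beta at the cell surface, averaged 2.77 ± 0.422 TPM in DCLI calves and 3.31 ± 0.195 TPM in CON calves (limma adjusted p = 0.531). The integrin chains ITGB1 and ITGB5 were the most abundant of that list, and TGFB2 and TGFB3 did not pass the filter.

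Of 14 tested genes of matrix degradation, 1 was higher and 2 were lower at an unadjusted p under 0.05, where 5.7% of all genes were higher and 3.19% lower. MMP15, a membrane-bound metalloproteinase, averaged 22.1 ± 3.47 TPM in DCLI calves and 16.3 ± 2.39 TPM in CON calves, with all 7 DCLI calves above the CON median (limma adjusted p = 0.409). PLAUR, the urokinase receptor, averaged 1.98 ± 0.939 TPM in DCLI calves and 3.33 ± 0.583 TPM in CON calves (limma adjusted p = 0.409). MMP3, MMP9 and MMP13 did not pass the filter, with highest levels of 0.10, 0.15 and 0.07 TPM.

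Of 26 tested other matrix genes, 1 was higher at an unadjusted p under 0.05, where 5.7% of all genes were higher. The 1 gene was NID1, the basement membrane linker nidogen-1, at 61.0 ± 13.3 TPM in DCLI calves and 46.6 ± 8.66 TPM in CON calves (limma adjusted p = 0.487). DPT, the gene of dermatopontin, averaged 10.1 ± 2.74 TPM in DCLI calves and 14.4 ± 5.56 TPM in CON calves (limma unadjusted p 0.0589). Of 10 further stellate cell genes, 1 was higher at an unadjusted p under 0.05, again beside 5.7% of all genes. This gene, the collectin COLEC10, averaged 21.3 ± 2.26 TPM in DCLI calves and 17.4 ± 4.16 TPM in CON calves (limma adjusted p = 0.554).

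Chains that form 1 protein were mostly high or low in the same calves. Correlations of log2(TPM + 1), centred on the group means, were computed over the 14 calves for 23 pairs, with permutation p-values (100000 resamples, smallest possible p 1e-05) adjusted over the pairs. COL4A1 and COL4A2 had a Pearson r of 0.966 (permutation p 1e-05, adjusted p 7.67e-05) and a Spearman rho of 0.934 (permutation p 2e-05, adjusted p 0.00023), and r was 0.953 without the 2 calves farthest from the median of COL4A1. COL1A1 and COL1A2 had an r of 0.902 (permutation p 1e-05, adjusted p 7.67e-05) and a rho of 0.903 (permutation p 3e-05, adjusted p 0.00023), with an r of 0.857 without the 2 farthest calves. COL1A1 and COL3A1 had an r of 0.898 (permutation p 2e-05, adjusted p 0.000115) and a rho of 0.886 (permutation p 6e-05, adjusted p 0.000345), with an r of 0.770 without the 2 farthest. COL6A1 and COL6A2 had an r of 0.846 (permutation p 0.00022, adjusted p 0.00101) and a rho of 0.811 (permutation p 0.00065, adjusted p 0.00299), with an r of 0.737 without the 2 farthest. The 2 chains of type V collagen were less tightly tied, with an r of 0.467 (permutation p 0.0912, adjusted p 0.150) and a rho of 0.473 (permutation p 0.0916, adjusted p 0.176), and an r of 0.164 without the 2 farthest.

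For types I, IV and VI the ratio of the partner chains varied less than the level of the first chain. The coefficient of variation over all calves was 11.8% for COL6A1 over COL6A2 and 20.6% for the COL6A1 level. COL1A1 over COL1A2 lay between 0.915 and 1.36 in DCLI calves and between 0.775 and 1.28 in CON calves, although the level of COL1A1 differed 4.25-fold between the highest and the lowest calf. COL4A1 over COL4A2 lay between 1.18 and 1.44 in DCLI calves and between 1.06 and 1.34 in CON calves, and the level of COL4A1 differed 2.44-fold. COL5A2 over COL5A1 lay between 1.37 and 3.07 in DCLI calves and between 1.89 and 3.08 in CON calves. Its coefficient of variation over all calves was 20.6%, and that of the COL5A2 level was 20.8%.

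Of the pairs with a contractile gene, ACTA2 and TAGLN had an r of 0.788 (permutation p 0.0013, adjusted p 0.00498) and a rho of 0.771 (permutation p 0.00205, adjusted p 0.00786). That r fell to 0.612 without the 2 farthest calves and no longer passed the adjusted threshold in those 12 calves. It was 0.834 within DCLI and 0.650 within CON. COL1A1 and ACTA2 had an r of 0.121 (permutation p 0.686, adjusted p 0.752) and a rho of 0.0857 (permutation p 0.775, adjusted p 0.917), with an r of 0.224 without the 2 farthest, 0.510 within DCLI and -0.200 within CON. VIM and COL1A1 had an r of 0.496 (permutation p 0.0709, adjusted p 0.125) and a rho of 0.455 (permutation p 0.103, adjusted p 0.183), with an r of 0.306 without the 2 farthest. Collagens were not paired with TAGLN, MYL9 or DES. ACTA2 and MYH11, the smooth muscle myosin heavy chain, had an r of -0.144 (permutation p 0.631, adjusted p 0.726) and a rho of -0.033 (permutation p 0.916, adjusted p 0.982), with an r of -0.078 without the 2 farthest.

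A further 4 pairs passed the adjusted threshold on r and no longer did so without the 2 farthest calves. They were COL1A1 with SPARC (r 0.734, rho 0.705), COL1A1 with DCN (r 0.645, rho 0.692), DCN with LUM (r 0.705, rho 0.560) and VIM with PTPRC, the leukocyte common antigen (r 0.653, rho 0.587). The permutation p-values of r were 0.00332, 0.0128, 0.00562 and 0.0104, and those of rho were 0.00609, 0.00744, 0.0391 and 0.0308, in that order. Adjusted over the 23 pairs they were 0.0109, 0.0295, 0.0162 and 0.0265 for r and 0.0200, 0.0214, 0.0899 and 0.0788 for rho. Without the 2 farthest calves r was 0.359, 0.630, 0.335 and 0.665. COL1A1 did not pass with PDGFRB (r 0.142, permutation p 0.623, adjusted p 0.726) or with LRAT (r 0.157, permutation p 0.591, adjusted p 0.726). Nor did TIMP1 pass with HP, an acute phase gene that hepatocytes express in inflammation (r 0.164, permutation p 0.579, adjusted p 0.726).

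**Figure D5:**
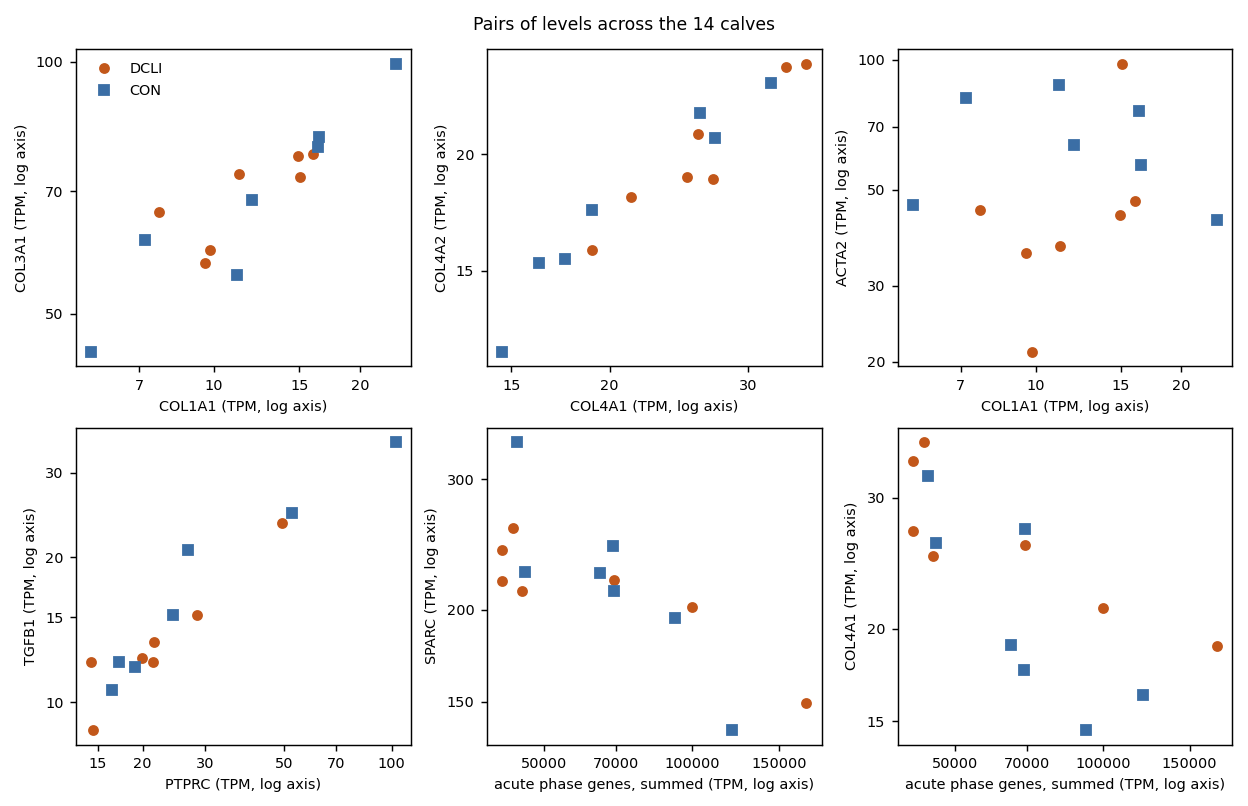
Levels of 6 pairs in the 14 calves (TPM, log axes), with circles for DCLI and squares for CON. COL1A1 with COL3A1, COL4A1 with COL4A2 and PTPRC with TGFB1 run along a line (group-centred r 0.898, 0.966 and 0.954), COL1A1 with ACTA2 does not (0.121), and SPARC and COL4A1 are lower in calves with more acute phase mRNA.

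Levels of markers of other cells moved with several of these genes. TGFB1 and PTPRC had an r of 0.954 (permutation p 1e-05, adjusted p 7.67e-05) and a rho of 0.925 (permutation p 3e-05, adjusted p 0.00023), with an r of 0.900 without the 2 calves farthest from the median of TGFB1. The 7 general leukocyte markers were all lower in DCLI (median log2 fold change -0.40), and their sum was 170 to 495 TPM in DCLI calves and 197 to 1107 TPM in CON calves. The 14 T and NK cell markers were also all lower in DCLI (median -0.51), with sums of 40.2 to 138 TPM in DCLI calves and 47.5 to 442 TPM in CON calves, and 10 of 11 macrophage markers were lower. None of these markers had an adjusted p under 0.05. Of all genes tested, 51.2% were lower in DCLI, and 42.3% to 56.5% with any single calf left out. With any single calf left out, all 7 general leukocyte markers were still lower in DCLI, at least 12 of the 14 T and NK cell markers and at least 9 of the 11 macrophage markers. CON1 and CON2 had the 2 highest sums of each of these lists among CON calves, so leaving out both was bound to raise the fold changes. Without both, 3 of the 7 general leukocyte markers were lower in DCLI (median 0.0035). So were 9 of the 14 T and NK cell markers (median -0.046) and 6 of the 11 macrophage markers (median -0.014). Of all genes, 32.7% were then lower in DCLI (median 0.075). Of the 11 endothelial markers 5 were lower in DCLI with all calves, 3 without CON2, 8 without CON3 or CON5 and 10 without CON6, and their sum was 249 to 344 TPM in DCLI calves and 206 to 486 TPM in CON calves. Of the 5 cholangiocyte markers tested 4 were lower, and their sum was 19.5 to 53.1 TPM in DCLI calves and 14.7 to 88.4 TPM in CON calves. The part that leukocytes or bile duct cells have in the levels of TGFB1, TIMP1, TIMP2 or LUM was not tested.

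After the data were seen, each of the 40 genes was correlated with the mean log2(TPM + 1) of 5 marker lists, 200 relations in all, centred on the group means. The same was not computed for all genes tested, so no share over all genes stands beside the counts for the 40. Whether such relations are particular to the 40 genes was not tested. With the 10 acute phase genes, which hepatocytes express in inflammation, r was negative for 34 of the 40 genes (median -0.335), and 5 passed the adjusted threshold. They were COL4A1 (r -0.842), SPARC (r -0.839), BGN (r -0.812), PDGFRB (r -0.770) and COL4A2 (r -0.769). The permutation p-values were 0.00024, 3e-05, 0.00047, 0.00195 and 0.0017 in that order, and adjusted over the 200 relations they were 0.0120, 0.00300, 0.0188, 0.0431 and 0.0425. Spearman rho was -0.855, -0.859, -0.820, -0.613 and -0.837, with permutation p-values of 0.00029, 0.00015, 0.00049, 0.022 and 0.00026 and adjusted values of 0.0145, 0.0145, 0.0163, 0.275 and 0.0145. Acute phase genes took up 4.1% to 17.1% of all TPM in DCLI calves and 4.4% to 12% in CON calves. Since TPM has a fixed total, a larger share of those genes leaves a smaller share for all others together. With TPM rescaled to the total without those 10 genes, SPARC (r -0.798, permutation, adjusted p 0.011) and COL4A1 (r -0.797, permutation, adjusted p 0.036) still passed and the other 3 did not. Without the 2 calves farthest from the median of the list, r lay between -0.649 and -0.750 and none of the 5 passed.

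With the leukocyte markers, r was 0.947 for TGFB1 (permutation p 1e-05, adjusted p 0.002), 0.777 for LRAT (permutation p 0.00078, adjusted p 0.0223) and 0.727 for TIMP2 (permutation p 0.00237, adjusted p 0.0431). The rho values were 0.890, 0.745 and 0.596 (permutation p 4e-05, 0.00319 and 0.0281, adjusted p 0.008, 0.0709 and 0.280). With the endothelial markers, r was 0.877 for TIMP3 (permutation p 8e-05, adjusted p 0.00533) and 0.739 for TGFB1 (permutation p 0.00218, adjusted p 0.0431), and rho was 0.829 and 0.600 (permutation p 0.00037 and 0.0265, adjusted p 0.0148 and 0.280). With the cholangiocyte markers, r was 0.814 for FBLN1 (permutation p 0.00071, adjusted p 0.0223) and rho was 0.710 (permutation p 0.00556, adjusted p 0.106). Without the 2 farthest calves, only TGFB1 with the leukocyte markers still passed (r 0.886, permutation, adjusted p 0.034), while r was 0.654 for LRAT, 0.493 for TIMP2, 0.772 for TIMP3, 0.468 for TGFB1 with the endothelial markers and 0.551 for FBLN1. With the hepatocyte markers, r was positive for 29 of the 40 genes (median 0.195), and 0 passed on r. SPARC, also named above for the acute phase genes, had an r of 0.623 (permutation p 0.0234, adjusted p 0.197). Its rho of 0.789 did pass (permutation p 0.00117, adjusted p 0.0334).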

How the data were processed

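Per the labels' protocols, each calf gave 1 liver library of poly(A) RNA, sequenced on a DNBSEQ platform. Adapter reads were removed, along with reads of more than 5% unknown bases or with low quality scores (under 15) at more than 20% of bases. Per the submitters' processing notes, the tools were DESeq2 1.4.5, RSEM 1.3.1 and SOAPnuke 1.5.6. Neither aligner nor genome build is given in the sources used. The authors deposited TPM to 2 decimals for 49721 RefSeq transcripts, which belong to 17469 genes, and no counts were used here.

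TPM was summed per gene, and all 40 gene IDs and symbols were found in a RefSeq table (ARS-UCD2.0), used for names only. Genes that reached 1 TPM in 7 or more libraries were tested as log2(TPM + 1), a scale on which the fold change of a gene of low level is understated. The test was limma 3.58.1 in R 4.3.3 (two-sided, lmFit and eBayes with a variance trend, no covariate), with Benjamini-Hochberg adjustment over all 11905 genes and a threshold of 0.05. It was checked on simulated data. The 40 genes, the other gene lists and the pairs were chosen with earlier results of these data known. All 40 are named. From each other list the genes named are the 2 of highest mean TPM and the 2 of lowest unadjusted p, not all of which are reported here, and genes below the filter were named after their values were seen. Replicates are separate calves. No sequences were used here, and no sample column was left out.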

Additional observations from a re-analysis of the deposited data

Results flagged for a closer look

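Each gene was searched in each group for a calf whose gap to its nearest neighbour was too large a share of the group's whole range by Dixon's limit for 7 values. Of 80 such groups 3 were found, where chance gives about 1 in 20. FBLN2 was high in CON7, at 7.20 TPM, among CON calves that otherwise lay at or below 1.58 TPM. MMP2 was high in CON1, at 16.24 TPM, among CON calves that otherwise lay at or below 11.03 TPM. POSTN was low in DCLI1, at 47.66 TPM, among DCLI calves that otherwise lay between 51.3 and 54.1 TPM.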

How the results depend on the processing

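Of the 40 genes, 23 kept the sign of their log2 fold change under all 23 other settings and 17 changed it at least once, in 70 of 914 values. None of the 17 had an unadjusted p under 0.05 with all calves. No gene of the 40 had an adjusted p under 0.05 with other pseudocounts (0.1 and 5), without the filter, among genes that averaged 5 TPM or more (34 of the 40 tested, without FBLN2), with median-ratio scaling or with quantile normalization. Under limma sample weights, which gave DCLI7 the highest weight (5.93, the next being 1.999 for DCLI5) and CON1 and CON2 the lowest (0.370 and 0.336), 1388 of all genes and 5 of the 40 did (COL4A1, COL4A2, FBLN2, MMP2 and RELN), 13 of the 40 had an unadjusted p under 0.05, and 15 were lower in DCLI. Leaving out both CON1 and CON2 called 0 of all genes and 0 of the 40. Under the weights 29.5% of all genes had an unadjusted p under 0.05 by limma, and 34.7% of all genes were lower in DCLI. The median log2 fold change of the 40 was then 0.095 and that of all genes was 0.082. Median-ratio scaling left 4 of the 40 at an unadjusted p under 0.05, where 12.8% of all genes were.

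Leaving out each calf in turn gave 0 to 12 genes called in all (12 without CON7) and 0 to 1 of the 40. It gave 3 to 6 of the 40 at an unadjusted p under 0.05, where 6.38% to 13.4% of all genes were. Of the 40, 18 to 28 were lower in DCLI, beside 42.3% to 56.5% of all genes. The median log2 fold change of the 40 was -0.069 to 0.022, and that of all genes was -0.030 to 0.033. Variation was lower within DCLI for 26 to 32 of the 40 and for 54.4% to 67.1% of all genes. The genes whose sign changed had log2 fold changes of -0.036 to 0.086 for BGN, -0.16 to 0.025 for COL14A1, -0.20 to 0.11 for COL1A1, -0.20 to 0.035 for COL1A2, -0.082 to 0.11 for COL3A1, -0.057 to 0.11 for COL5A1, -0.0496 to 0.091 for COL5A2, -0.14 to 0.0058 for COL6A2; -0.073 to 0.0076 for DES, -0.25 to 0.076 for FBLN1, -0.10 to 0.083 for FN1, -0.12 to 0.017 for LOX, -0.12 to 0.063 for LOXL1, -0.10 to 0.026 for PDGFRA, -0.15 to 0.062 for SPARC, -0.073 to 0.18 for TIMP3.

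Other sign changes in log2 fold change were as follows, and the cause was not tested. Quantile normalization gave -0.0054 for BGN, -0.0116 for COL3A1, 0.0142 for PDGFRA and -0.0156 for TIMP3, and a pseudocount of 5 gave -0.0037 for TIMP3. Sample weights gave 0.2031 for COL1A1, 0.0787 for COL1A2, 0.1568 for COL6A2, 0.0090 for DES, 0.0172 for FBLN1, 0.0115 for FN1, 0.0926 for LOXL1 and 0.1495 for SPARC. Leaving out both CON1 and CON2 gave 0.0813 for COL14A1, 0.125 for COL1A1, 0.0030 for COL1A2, 0.0658 for COL6A2, 0.0331 for LRAT and 0.0748 for SPARC. Without the 2 farthest calves r was -0.2402 for COL1A1 with PDGFRB, -0.1272 for COL1A1 with LRAT, 0.1658 for TGFB1 with COL1A1 and -0.1951 for TIMP1 with HP. Without centring, r was 0.1036 for ACTA2 with MYH11.

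With the library number as a replicate block, 1 gene was called in all and 0 of the 40. Of the 40, 6 then had an unadjusted p under 0.05 by limma, beside 10.6% of all genes. Whether the numbers pair the calves was not tested. The correlation of same-numbered calves ran from -0.176 to 0.453, and 3 of 7 DCLI calves correlated best with their own number. Depth is unknown, so low levels such as those of LOX or RGS5 cannot be given a counting error.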
